A study of Mus musculus with 8 samples.

Results

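The genes described here are 36 genes of sympathetic neurons and of the Schwann cells that ensheathe their axons, listed by name. They were chosen with earlier results of these data known. A gene was measured where a probe set carried its symbol alone in the platform table, and of several such probe sets the brightest on average over the arrays stood for it. This gave 35 of the 36 genes, out of 22184 genes measured in this way. All 35 passed the filter on dim genes and were tested among 16638 genes, 30 as neuronal genes and 5 as Schwann cell and neural crest genes. The neuronal genes include 5 receptors of the neurotrophin and GDNF families, Ntrk3, Ret, Gfra2, Gfra3 and Ngfr, by assignment. Phox2a, a transcription factor of noradrenergic neurons, was measured only by a probe set shared with another gene and has no value here.

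The study set the aorta of newborn mice without lysyl oxidase (Lox), the enzyme that cross-links collagen and elastin, beside that of wild-type mice, in 2 segments of the vessel. The 4 groups, with 2 arrays each, were KO ascending aorta, WT ascending aorta, KO descending aorta and WT descending aorta, all from p0 pups on the albino C57BL/6J background. By the labels, ascending aorta runs here from the aortic valve as far as the ductus arteriosus, and descending aorta lies between vena cava and diaphragm. Each array held RNA of a pool of 8 pups of 1 genotype, so the spread given is that between pools and not between pups. Whether the deletion of Lox was constitutive or conditional is not stated in the sources used here. Lox itself read 8.87 and 8.74 log2 in KO against 11.47 and 11.60 in WT ascending aorta, and 8.56 and 8.51 in KO against 11.41 and 11.24 in WT descending aorta. Lox fell by 2.73 in KO ascending aorta (limma, adjusted p = 5.34e-05) and fell by 2.80 in KO descending aorta (adjusted p = 4.42e-05), in the direction the labels give. The position of its probes against the deleted stretch is not known.

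Postganglionic sympathetic neurons have their cell bodies in ganglia beside the spine and in front of the aorta, and send axons into the outer coat of arteries, where they release noradrenaline and neuropeptide Y onto smooth muscle. Most of the mRNA of a neuron lies in its cell body, and its axon holds little. Schwann cells and their neural crest precursors lie along the axons, and their own mRNA is made where they sit. Growing sympathetic axons follow arteries and depend on neurotrophins and ligands of the GDNF family from their targets.

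Values below are the log2 signal on each array, and differences are log2 differences. A gene is called lower or higher where limma's p-value, after Benjamini-Hochberg adjustment over the 16638 genes, was under 0.05. The segment difference is ascending minus descending and the genotype difference is KO minus WT. Array signals of different probe sets cannot be set against each other, so each gene is compared only with itself. In a bulk sample, fewer cells of a type and less RNA per cell cannot be told apart.

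The sequences shown are promoters of some of the transmitter and granule genes. Those of Th, Scg2, Chgb and Slc18a2 were picked because they hold an 8-base motif, the cyclic AMP response element (CRE). It was found in 4 of the 16 genes that were lower in ascending aorta and had a promoter window. It was also found in Foxd3, which was not called between the segments. Ddc, Dbh, Chga and Scg3, also transmitter or granule genes with a promoter window, held no CRE in it. The stretches below run 5′ to 3′ on the strand of the gene from 100 bases before to 10 bases after the RefSeq start (GRCm38.p6), and capitals mark the CRE, TGACGTCA. They lie at chr7:142899986-142900095 (minus strand) for Th, chr1:79440017-79440126 (minus strand) for Scg2, chr2:132781542-132781651 (plus strand) for Chgb, chr19:59260778-59260887 (plus strand) for Slc18a2 and chr2:27165407-27165516 (plus strand) for Dbh. Dbh is shown as the transmitter gene with the largest segment difference, and its stretch holds no CRE.
Th: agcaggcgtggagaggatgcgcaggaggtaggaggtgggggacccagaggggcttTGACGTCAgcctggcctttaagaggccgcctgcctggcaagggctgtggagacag
Scg2: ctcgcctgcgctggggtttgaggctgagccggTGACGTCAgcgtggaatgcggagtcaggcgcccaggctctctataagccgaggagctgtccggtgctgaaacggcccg
Chgb: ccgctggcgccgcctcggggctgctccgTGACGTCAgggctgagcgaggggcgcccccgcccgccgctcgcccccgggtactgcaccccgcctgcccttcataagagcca
Slc18a2: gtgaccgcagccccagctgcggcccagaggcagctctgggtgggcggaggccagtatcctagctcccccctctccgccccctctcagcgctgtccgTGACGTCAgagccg
Dbh: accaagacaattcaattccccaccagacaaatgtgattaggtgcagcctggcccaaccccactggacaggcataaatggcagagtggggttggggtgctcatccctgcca

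Of the 36 genes, 22 had a promoter window in the RefSeq table, from 250 bases before to 50 bases after the start, and some had several. The CRE was present on either strand in the windows of 5 of these 22 genes (22.7%), which were Chgb, Foxd3, Scg2, Slc18a2 and Th, against 2.03% of all 27025 genes with a window. Counted from the start, the first base of the CRE lay at -45 in Th, -68 in Scg2, -72 in Chgb and -4 in Slc18a2. The shorter motif TGACG, which every CRE contains, was present in 40.9% of the 22 genes and in 23% of all genes. The E-box CANNTG stood in 68.2% against 75%, the SOX-type motif ACAAAG in 18.2% against 21%, and the letters TATAAA in 13.6% against 15.7%. A PHOX2-type motif, TAAT followed after 3 bases by ATTA, was in the windows of 0 of the 22 genes and of 0.555% of all genes. These matches describe letters in a window and were not tested.

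Most of the neuronal genes were lower in ascending than in descending aorta, in both genotypes. They were chosen with earlier results of these data known, so the counts below describe them and are not an independent test. Over the genotypes together, 24 of the 35 genes were lower in ascending aorta and 0 were higher (68.6% lower), where 2.57% of all genes tested were lower, 1.5% were higher and 4.07% were called in either direction. Of the 30 neuronal genes 23 were lower, with a median segment difference of -1.09, and of the 5 Schwann cell and neural crest genes 1 was lower, with a median of -0.18, beside a median of 0.00 over all genes tested. In the same 24 genes all 4 ascending arrays read below all 4 descending arrays, which held for 4.19% of all genes tested, and in 0 all ascending arrays read above, against 3.07% of all genes. The mean signal over the 35 genes lay between 5.53 and 5.65 on the 4 ascending arrays and between 6.48 and 6.91 on the 4 descending arrays. The 24 genes include Nefm, which passed the dim filter only through its descending arrays.

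**Figure D1:**
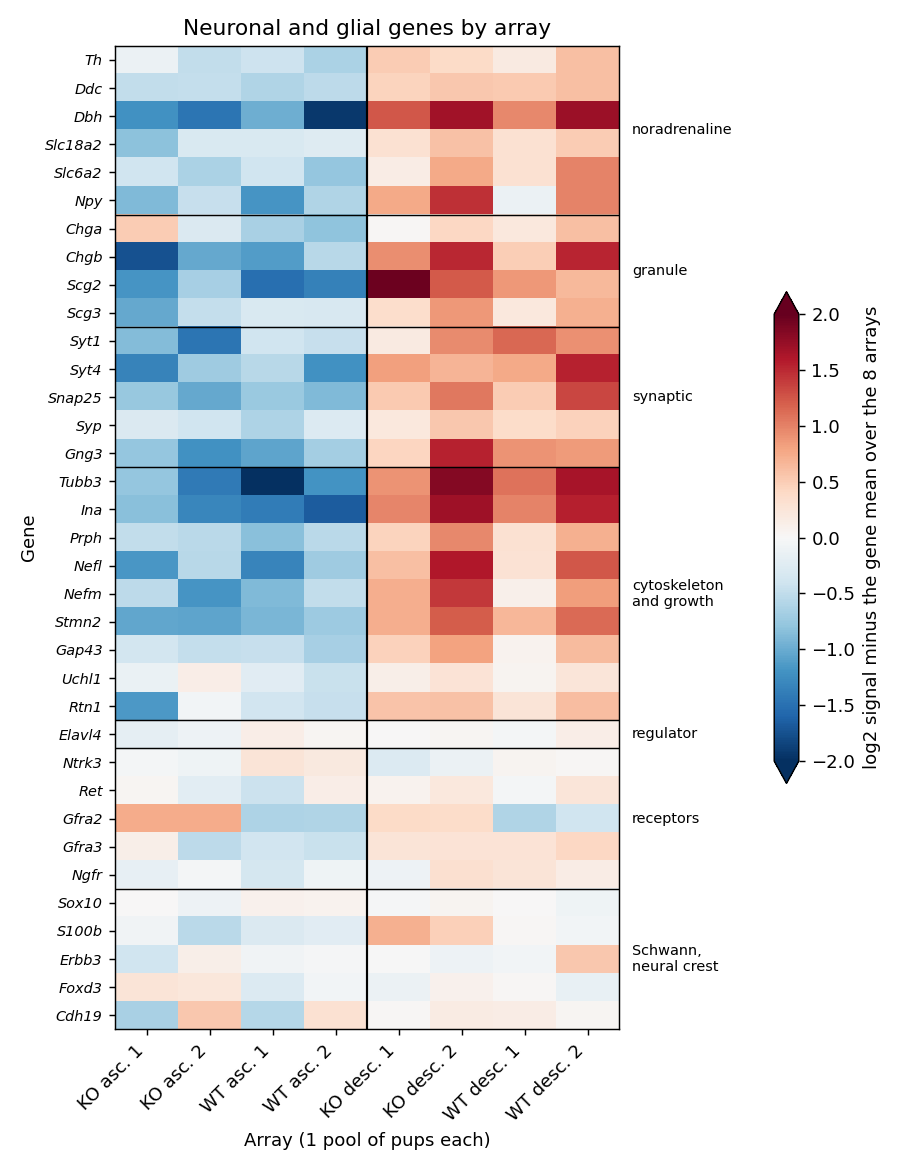
Signal of the 35 genes on the 8 arrays, shown for each gene as its difference (log2) from its own mean over the arrays, with genes in rows by role and arrays in columns by group. The transmitter, granule, synaptic and cytoskeletal genes are low on the 4 ascending and high on the 4 descending arrays, while most receptor and Schwann cell genes show no such split.

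All 6 genes that make, store, take up or accompany noradrenaline were lower in ascending aorta, with a median difference of -1.07. Dbh, which turns dopamine into noradrenaline, read 4.67 and 4.42 in KO and 4.91 and 3.95 in WT ascending aorta, against 7.13 and 7.57 in KO and 6.84 and 7.60 in WT descending aorta. Th, the rate-limiting enzyme of catecholamine synthesis, read 5.81 and 5.43 in KO and 5.51 and 5.29 in WT ascending aorta, against 6.43 and 6.31 in KO and 6.11 and 6.52 in WT descending aorta. Ddc, which makes dopamine from L-DOPA, read 4.99 and 5.01 in KO and 4.88 and 4.96 in WT ascending aorta, against 5.93 and 6.02 in KO and 6.00 and 6.08 in WT descending aorta. All ascending arrays of these 3 enzymes lay below every descending array, by the widest margin for Dbh. The differences were -2.80 (SE 0.24, 6.96-fold, adjusted p = 0.000565) for Dbh, -1.04 (SE 0.07, 2.06-fold, adjusted p = 0.000247) for Ddc and -0.83 (SE 0.12, 1.78-fold, adjusted p = 0.0076) for Th.

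Slc18a2, the vesicular monoamine transporter that loads noradrenaline into vesicles, read 5.55 and 6.07 in KO and 6.08 and 6.12 in WT ascending aorta, against 6.68 and 6.96 in KO and 6.68 and 6.88 in WT descending aorta. Slc6a2, the transporter that takes noradrenaline back up, read 4.88 and 4.65 in KO and 4.89 and 4.50 in WT ascending aorta, against 5.43 and 6.04 in KO and 5.58 and 6.28 in WT descending aorta. Npy, the peptide that sympathetic terminals release together with noradrenaline, read 6.63 and 7.06 in KO and 6.34 and 6.92 in WT ascending aorta, against 8.28 and 8.98 in KO and 7.40 and 8.51 in WT descending aorta. None of the 3 overlapped between the segments, although the highest ascending and lowest descending arrays of Npy, at 7.06 and 7.40, were close. The differences were -0.85 (SE 0.13, 1.8-fold, adjusted p = 0.00749) for Slc18a2, -1.10 (SE 0.19, 2.15-fold, adjusted p = 0.0146) for Slc6a2 and -1.55 (SE 0.27, 2.93-fold, adjusted p = 0.0146) for Npy. The calls of Slc6a2 and Npy were lost under some of the alternatives, while those of Dbh, Th and Slc18a2 held under every alternative run. The call of Ddc held under those in which it was tested, since a dim filter at the 50th percentile left it out.

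Of the 4 granule proteins 3 were lower in ascending aorta, and the median of the 4 was -1.64. Chgb, a granin that fills dense-core vesicles, read 4.63 and 5.34 in KO and 5.25 and 5.82 in WT ascending aorta, against 7.30 and 7.87 in KO and 6.86 and 7.89 in WT descending aorta. Scg2, the precursor of secretoneurin, read 5.37 and 5.88 in KO and 5.03 and 5.19 in WT ascending aorta, against 8.50 and 7.77 in KO and 7.41 and 7.20 in WT descending aorta. Scg3, a granin that binds chromogranin A, read 4.0 and 4.54 in KO and 4.71 and 4.70 in WT ascending aorta, against 5.37 and 5.89 in KO and 5.23 and 5.73 in WT descending aorta. The gap between the segments was widest in Scg2, where no ascending array passed 5.88 and no descending array fell under 7.20. The differences were -2.35 (SE 0.17, 5.1-fold, adjusted p = 0.000308) for Scg2, -2.22 (SE 0.26, 4.65-fold, adjusted p = 0.0026) for Chgb and -1.07 (SE 0.17, 2.1-fold, adjusted p = 0.00948) for Scg3. Chga, the chromogranin A gene, read 6.85 and 6.05 in KO and 5.69 and 5.54 in WT ascending aorta, against 6.37 and 6.75 in KO and 6.55 and 6.95 in WT descending aorta. Its KO ascending array at 6.85 lay above 3 of the 4 descending arrays, and its difference of -0.62 (adjusted p = 0.117) did not pass the test.

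All 5 synaptic genes were lower in ascending aorta, with a median of -1.70. Syt1, the calcium sensor of fast vesicle release, read 5.16 and 4.58 in KO and 5.63 and 5.58 in WT ascending aorta, against 6.21 and 6.98 in KO and 7.19 and 6.95 in WT descending aorta. Syt4, a synaptotagmin of dense-core vesicles, read 5.03 and 5.67 in KO and 5.82 and 5.16 in WT ascending aorta, against 7.20 and 7.06 in KO and 7.13 and 7.92 in WT descending aorta. Snap25, a SNARE protein of the terminal membrane, read 4.76 and 4.50 in KO and 4.78 and 4.63 in WT ascending aorta, against 6.04 and 6.57 in KO and 6.02 and 6.85 in WT descending aorta. In each of the 3 the arrays of the segments were separate, and Snap25 was the most even, with its 4 ascending arrays between 4.50 and 4.78. The differences were -1.91 (SE 0.22, 3.75-fold, adjusted p = 0.00229) for Syt4, -1.70 (SE 0.19, 3.26-fold, adjusted p = 0.00193) for Snap25 and -1.60 (SE 0.18, 3.02-fold, adjusted p = 0.00225) for Syt1. Gng3, a G protein gamma subunit of neurons, read 5.23 and 4.80 in KO and 4.95 and 5.32 in WT ascending aorta, against 6.43 and 7.55 in KO and 6.90 and 6.86 in WT descending aorta, a difference of -1.86 (SE 0.23, 3.63-fold, adjusted p = 0.00297). Syp, the vesicle membrane protein synaptophysin, read 5.87 and 5.76 in KO and 5.55 and 5.90 in WT ascending aorta, against 6.37 and 6.71 in KO and 6.54 and 6.63 in WT descending aorta, a difference of -0.79 (SE 0.11, 1.73-fold, adjusted p = 0.00531). Both showed the same order of arrays, with Syp the smaller of the differences. Other probe sets of Syt4 gave -1.04 and -0.62, while another of Syp, with a mean signal of 4.34, gave 0.07, in the other direction.

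Of the 9 genes of the neuronal cytoskeleton and of axon growth 8 were lower, with a median of -1.54. Tubb3, the neuronal beta-tubulin, read 5.11 and 4.47 in KO and 3.77 and 4.69 in WT ascending aorta, against 6.78 and 7.72 in KO and 6.96 and 7.53 in WT descending aorta. Ina, the intermediate filament protein alpha-internexin, read 5.18 and 4.71 in KO and 4.62 and 4.36 in WT ascending aorta, against 6.99 and 7.71 in KO and 7.02 and 7.57 in WT descending aorta. Prph, the intermediate filament of peripheral neurons, read 4.86 and 4.80 in KO and 4.51 and 4.81 in WT ascending aorta, against 5.79 and 6.30 in KO and 5.65 and 6.05 in WT descending aorta. The lowest descending array of Tubb3 and of Ina stood over 1 log2 unit above their highest ascending array. The differences were -2.74 (SE 0.28, 6.67-fold, adjusted p = 0.00126) for Tubb3, -2.60 (SE 0.19, 6.08-fold, adjusted p = 0.000318) for Ina and -1.20 (SE 0.14, 2.3-fold, adjusted p = 0.00231) for Prph.

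Nefl, the light neurofilament subunit, read 4.01 and 4.63 in KO and 3.86 and 4.47 in WT ascending aorta, against 5.79 and 6.79 in KO and 5.47 and 6.43 in WT descending aorta. Nefm, the medium subunit, read 4.23 and 3.58 in KO and 3.87 and 4.26 in WT ascending aorta, against 5.48 and 6.17 in KO and 4.86 and 5.60 in WT descending aorta. Both were near the bottom of the measurable range in ascending aorta, where 2 of the 4 arrays of each lay under the level of the dim filter, 4.11, so that their differences of -1.87 (SE 0.29, 3.66-fold, adjusted p = 0.00886) and -1.54 (SE 0.23, 2.92-fold, adjusted p = 0.00729) may understate the change. The ascending mean of Nefm, 3.98, was under that level, so Nefm passed the filter only through its descending arrays, with a mean of 5.53. Stmn2, a regulator of microtubules in growth cones, read 7.26 and 7.24 in KO and 7.38 and 7.58 in WT ascending aorta, against 9.03 and 9.51 in KO and 8.97 and 9.44 in WT descending aorta. Gap43, a protein of growing axon tips, read 8.81 and 8.70 in KO and 8.71 and 8.52 in WT ascending aorta, against 9.64 and 9.99 in KO and 9.25 and 9.81 in WT descending aorta. Rtn1, a reticulon of the neuronal endoplasmic reticulum, read 4.99 and 6.09 in KO and 5.76 and 5.68 in WT ascending aorta, against 6.70 and 6.72 in KO and 6.40 and 6.76 in WT descending aorta. The groups were separate in all 3, with the ascending arrays of Rtn1 the most scattered. The differences were -1.87 (SE 0.14, 3.67-fold, adjusted p = 3e-04) for Stmn2, -0.99 (SE 0.14, 1.99-fold, adjusted p = 0.00531) for Gap43 and -1.01 (SE 0.21, 2.02-fold, adjusted p = 0.0337) for Rtn1. Uchl1, a ubiquitin hydrolase used as a pan-neuronal marker (PGP9.5), did not pass, at -0.34 (adjusted p = 0.113), and its ascending arrays between 7.71 and 8.30 overlapped the descending ones between 8.21 and 8.43. Elavl4, the RNA-binding protein HuD, read between 3.95 and 4.26 on all 8 arrays, around the level of the dim filter, and its difference was -0.07 (adjusted p = 0.762).

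**Figure D2:**
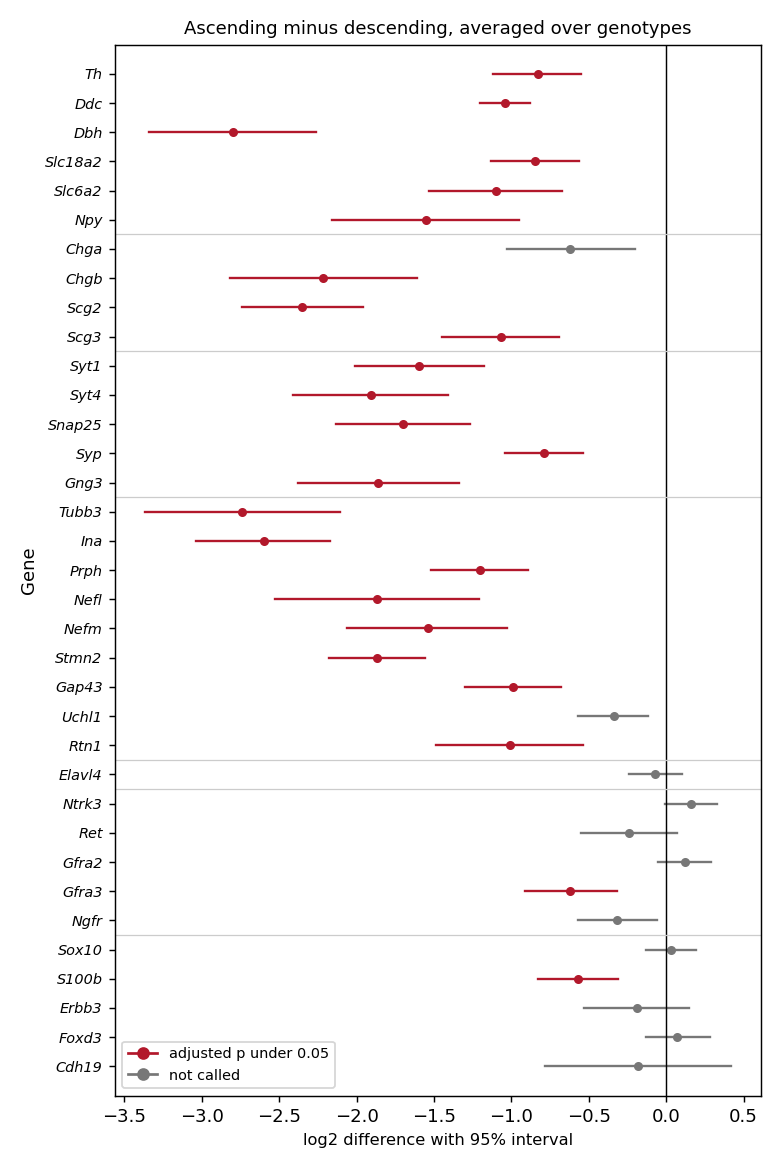
Ascending minus descending difference (log2) of each of the 35 genes averaged over the genotypes, as points with 95% confidence intervals from limma, grouped by role. The intervals of the 24 genes called lower lie below 0, from Dbh at -2.80 to S100b at -0.57, and those of Sox10, Foxd3, Cdh19, Elavl4 and Gfra2 span 0.

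Of the 5 receptors for target-derived factors 1 was lower in ascending aorta, and the median of the 5 was -0.24. Gfra3, the co-receptor for artemin, read 5.92 and 5.28 in KO and 5.42 and 5.35 in WT ascending aorta, against 6.05 and 6.08 in KO and 6.08 and 6.22 in WT descending aorta, a difference of -0.62 (SE 0.13, 1.53-fold, adjusted p = 0.0352). Ret, the kinase that GDNF family co-receptors share, read between 4.92 and 5.49 on ascending and between 5.31 and 5.60 on descending arrays, with a difference of -0.24 (adjusted p = 0.466). Ngfr, the low-affinity neurotrophin receptor p75, differed by -0.32 (adjusted p = 0.196), Ntrk3, the receptor for neurotrophin-3, by 0.16 (adjusted p = 0.341), and Gfra2, the co-receptor for neurturin, by 0.12 (adjusted p = 0.513). Among these receptors only Gfra3 had separate segments, with 5.92 its highest ascending and 6.05 its lowest descending value.

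Of the 5 Schwann cell and neural crest genes 4 did not pass the test between the segments. Sox10, the transcription factor that defines the Schwann cell lineage, read 5.51 and 5.41 in KO and 5.59 and 5.58 in WT ascending aorta, against 5.49 and 5.57 in KO and 5.51 and 5.42 in WT descending aorta. Its arrays lay between 5.41 and 5.59 in all groups, and the segment difference of 0.03 had a 95% interval of -0.13 to 0.19. Intervals were wider for Erbb3, the neuregulin receptor of Schwann cells (-0.19, interval -0.53 to 0.15), and for Foxd3, a factor of neural crest cells (0.07, interval -0.13 to 0.28). Cdh19, a cadherin of Schwann cell precursors, also had a wider one (-0.18, interval -0.78 to 0.42). Cdh19 was near the level of the dim filter, 4.11, which 2 of its 4 ascending arrays did not reach. S100b, a calcium-binding protein of glia that other cell types also make, read 7.45 and 6.98 in KO and 7.23 and 7.29 in WT ascending aorta, against 8.23 and 7.99 in KO and 7.54 and 7.46 in WT descending aorta. Its ascending arrays lay below its descending arrays, and the difference was -0.57 (SE 0.11, 1.48-fold, adjusted p = 0.0284), a call that some alternatives did not keep. The difference between the neuronal and the Schwann cell genes was not itself tested.

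The lower levels in ascending aorta were seen in each genotype alone, with wider errors. In KO mice 17 of the 35 genes were lower in ascending than in descending aorta (48.6%, where 0.938% of all genes were), and in WT mice 13 were (37.1%, where 0.974% were). In both, 0 genes were higher, where 0.547% of all genes in KO and 0.511% in WT were, and 1.48% were called in either direction in each. Of the 35 genes 11 were lower in both genotypes. The median segment difference of the 30 neuronal genes was -1.19 in KO and -1.15 in WT. The 2 comparisons share no arrays, though they share the fit's estimate of the spread. The difference was negative in both genotypes for 30 of the 35 genes, and differed between the genotypes by less than 0.5 log2 for 29. Dbh differed by -2.80 in KO and -2.79 in WT, Tubb3 by -2.46 and -3.02, Ina by -2.41 and -2.80, Scg2 by -2.51 and -2.19, and Stmn2 by -2.02 and -1.73, all 5 called in each. Across the 35 genes, which are not independent replicates, the KO and WT differences correlated with Pearson's r = 0.91, given as a description.

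**Figure D3:**
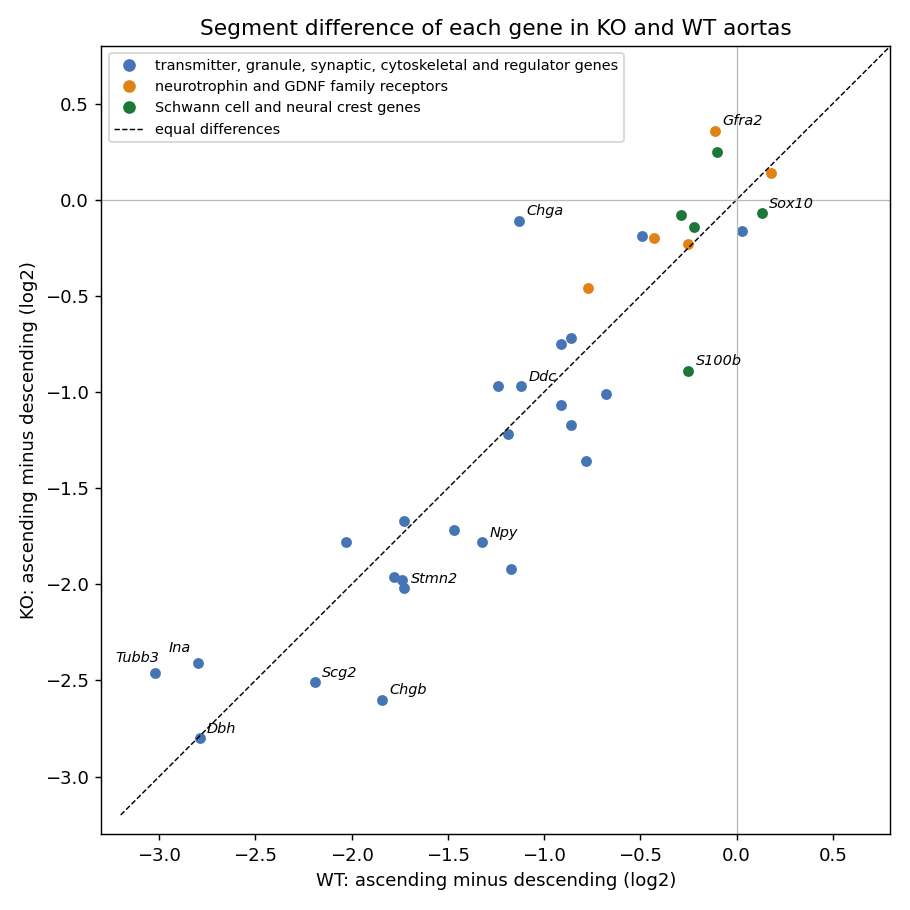
Ascending minus descending difference (log2) of the 35 genes in KO aorta (y axis) against that in WT aorta (x axis), 1 point per gene with the line of equal difference. Most points lie near the line, from Dbh, Tubb3 and Ina at the lower left to the Schwann cell genes around 0, and Chga is farthest from it at -0.11 in KO and -1.13 in WT.

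The counts within 1 genotype fell when single arrays of that genotype were left out, such as KO or WT descending replicate 2. Such a fit leaves 1 array in a group, and fewer of all genes were called in it too. Scg2, Ina and Stmn2 were called in both genotypes under every alternative, and Ddc under every one in which it was tested. Averaged over the genotypes, between 20 and 24 genes were called when 1 array was left out. One descending pool of each genotype read higher than the other in most of the genes. KO descending replicate 2 was above replicate 1 in 29 of the 35 genes, and WT descending replicate 2 above replicate 1 in 26. The ascending pools were nearly even, with replicate 2 higher in 14 genes in KO and 19 in WT. The share of all genes with this order is not given here, so whether it is particular to these genes was not tested.

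Further sympathetic genes, listed with earlier results of these data known, moved less uniformly. Of 27 transcription factors, nicotinic receptor subunits and other neuronal genes 24 were tested, of which 8 were lower and 1 was higher in ascending aorta, with a median of -0.32. Stmn3, a relative of Stmn2, read 6.16 and 6.02 in KO and 5.69 and 5.73 in WT ascending aorta, against 7.12 and 7.77 in KO and 7.46 and 7.81 in WT descending aorta, a difference of -1.64 (SE 0.15, adjusted p = 0.000689). The nicotinic subunits that carry ganglionic transmission were also lower, with differences of -1.42 (SE 0.21, adjusted p = 0.00726) for Chrna3 and -1.16 (SE 0.16, adjusted p = 0.00586) for Chrnb4. Gal, the neuropeptide galanin, differed by -0.92 (SE 0.10, adjusted p = 0.00213), Snap91, a clathrin adaptor of synaptic vesicles, by -0.94 (SE 0.11, adjusted p = 0.00249), and Eya1, a transcriptional co-activator, by -0.78 (SE 0.10, adjusted p = 0.00395). The gene that was higher, named after its values were seen, was Hand2, a transcription factor of sympathetic neurons and also of the heart and its outflow tract, with 7.22 and 7.51 in KO and 7.09 and 7.16 in WT ascending aorta, against 6.19 and 6.73 in KO and 6.52 and 6.41 in WT descending aorta. It ran opposite to the transmitter genes, with a difference of 0.78 (SE 0.13, adjusted p = 0.011).

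Among 28 further Schwann and satellite glia genes 20 were tested, and 2 were lower and 3 higher in ascending aorta, with a median of 0.00. Fabp7, a fatty acid binding protein of immature and satellite glia, read 6.27 and 6.57 in KO and 5.88 and 5.52 in WT ascending aorta, against 7.62 and 7.31 in KO and 7.17 and 7.20 in WT descending aorta. Its difference was -1.27 (SE 0.12, adjusted p = 0.000822), and that of L1cam, an adhesion molecule of axons and Schwann cells, was -0.97 (SE 0.21, adjusted p = 0.0368). The higher genes were Itgb8, an integrin subunit, at 0.80 (adjusted p = 0.00439), Mia, a secreted protein also made by cartilage, at 0.78 (adjusted p = 0.00702), and Tfap2a, a neural crest transcription factor, at 0.75 (adjusted p = 0.0175). Fabp7 differed the most of these 5, and its segments did not overlap.

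Several genes of other neurons and of neuroendocrine cells were at the bottom of the range. Of 11 sensory neuron genes 4 were tested and 0 passed limma's threshold (0 also at an unadjusted p under 0.05), with P2rx3, an ATP-gated channel, at -0.18 (adjusted p = 0.426) and Prdm12, a transcription factor of pain-sensing neurons, at 0.17 (adjusted p = 0.341). The sensory genes Trpv1 and Scn10a were left out as dim. Pnmt, which makes adrenaline in chromaffin cells, read between 3.59 and 3.94 on all 8 arrays, below the level of the dim filter. The vesicular acetylcholine transporter Slc18a3 was left out as dim too, and of the 5 cholinergic genes tested 1, the muscarinic receptor gene Chrm2, was higher in ascending aorta, at 0.68 (SE 0.09, adjusted p = 0.00468). Of 9 chromaffin and neuroendocrine genes 3 were tested, and Resp18, a granule protein of neuroendocrine cells, was lower in ascending aorta, at -0.79 (SE 0.13, adjusted p = 0.011).

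Ligands that guide or feed these axons varied between the segments in both directions, with 2 of 17 tested higher and 2 lower. Slit2, a repellent of growing axons, read 7.97 and 8.10 in KO and 8.11 and 8.02 in WT ascending aorta, against 9.06 and 9.09 in KO and 8.74 and 8.69 in WT descending aorta. Sema3c, a semaphorin of the outflow tract, read 8.96 and 9.11 in KO and 8.94 and 8.95 in WT ascending aorta, against 8.72 and 8.27 in KO and 8.03 and 7.98 in WT descending aorta. Slit2 was lower in ascending aorta, at -0.85 (SE 0.07, adjusted p = 0.000565), with Sema3a, a repellent of sympathetic axons, at -0.67 (SE 0.08, adjusted p = 0.00207). Sema3c was higher by 0.74 (SE 0.10, adjusted p = 0.00622) and Efna5, an ephrin, by 0.80 (SE 0.07, adjusted p = 0.000776). The segments did not overlap in any of the 4. Artn, the ligand of Gfra3, and Nrtn, that of Gfra2, differed by -0.08 (adjusted p = 0.699) and -0.07 (adjusted p = 0.813).

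Markers of neighbouring tissues also moved with the segment. Of 8 fat genes tested 6 were lower in ascending aorta, among them Adipoq at -1.38 (SE 0.15, adjusted p = 0.00155) and Ucp1 at -2.09 (SE 0.42, adjusted p = 0.0306), and the mean over the fat list lay between 6.20 and 7.07 on ascending and between 6.79 and 7.81 on descending arrays. Of 12 heart muscle genes 2 were lower, Actc1 at -0.80 (SE 0.16, adjusted p = 0.0276) and Myl7 at -0.90 (SE 0.20, adjusted p = 0.0474), with list means of 7.15 to 7.76 on ascending and 7.46 to 8.07 on descending arrays. The heart muscle genes went both ways, with 7 of the 12 differences negative and 5 positive, from -1.37 to 1.68. Of 8 smooth muscle genes 2 were higher, Lmod1 at 0.43 (SE 0.08, adjusted p = 0.0196) and Myocd at 0.34 (SE 0.07, adjusted p = 0.0429), with list means of 10.28 to 10.42 on ascending and 10.21 to 10.26 on descending arrays. Smooth muscle is the main cell type of the labelled tissue, and its markers were high on all 8 arrays. Of 10 skeletal muscle genes, 8 thymus genes and 6 adrenal cortex and liver genes 0 passed limma's threshold (2, 3 and 1 at an unadjusted p under 0.05), with the smallest p-values at -0.56 (adjusted p = 0.147) for Myh3 of muscle, 0.33 (adjusted p = 0.133) for Dntt of thymus and 0.37 (adjusted p = 0.114) for Star of adrenal cortex. Of 4 oesophagus genes 1, Krt14, was lower at -0.46 (SE 0.08, adjusted p = 0.0141). The part of fat or heart tissue in the neuronal result was not tested. Of 9 lung genes tested 1 was lower, Sftpc, the surfactant protein C of lung, at -2.41 (SE 0.32, adjusted p = 0.00489). On the WT descending arrays Sftpc read 8.37 and 10.15, against 4.50 to 5.07 on the other arrays. The part of lung tissue in the neuronal result was not tested either.

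Between the genotypes few of these genes passed the test. In ascending aorta 1 of the 35 genes was higher in KO and 0 were lower, where 1.54% of all genes tested were higher, 1.19% lower and 2.73% called in either direction. In descending aorta 1 was higher and 0 were lower, where 1.46% of all genes were higher, 0.823% lower and 2.28% called. Averaged over the segments 2 were higher (5.71%) and 0 were lower, where 6.21% of all genes were higher, 5.22% lower and 11.4% called. The medians over the 35 genes were 0.08 in ascending aorta and 0.05 in descending aorta. The share of these genes called was thus close to that of all genes in each segment and below it in the averaged comparison.

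The gene called in every genotype comparison was Gfra2, which encodes the co-receptor through which neurturin acts on Ret. Gfra2 read 7.92 and 7.92 in KO against 6.56 and 6.58 in WT ascending aorta, and 7.57 and 7.55 in KO against 6.58 and 6.79 in WT descending aorta. Its KO arrays lay above its WT arrays by more than the spread of either genotype in both segments. The differences were 1.35 (SE 0.11, 2.54-fold, adjusted p = 0.0023) in ascending aorta, 0.88 (SE 0.11, 1.84-fold, adjusted p = 0.0103) in descending aorta and 1.11 (SE 0.07, 2.16-fold, adjusted p = 0.000382) averaged. The log2 difference of Gfra2, KO vs WT descending, lost its call without KO descending replicate 1 or 2 (adjusted p = 0.0549 and 0.0511) or WT descending replicate 1 (adjusted p = 0.0912), at values of 0.77 to 0.88. The other receptors of the GDNF family did not pass, with averaged differences of 0.06 (adjusted p = 0.842) for Ret and 0.06 (adjusted p = 0.799) for Gfra3, and neither did the ligand Nrtn at 0.07 (adjusted p = 0.666).

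Scg2 was higher in KO when averaged over the segments. It read 5.37 and 5.88 in KO against 5.03 and 5.19 in WT ascending aorta, and 8.50 and 7.77 in KO against 7.41 and 7.20 in WT descending aorta. KO arrays lay above WT arrays in both segments, and the averaged difference was 0.67 (SE 0.17, 1.59-fold, adjusted p = 0.0418), while neither segment passed alone, with 0.51 (adjusted p = 0.299) for ascending aorta and 0.83 (adjusted p = 0.12) for descending aorta. The log2 difference of Scg2, KO vs WT averaged over segments, lost its call without the dim filter (adjusted p = 0.0568) and without any 1 of 6 of the 8 arrays, all but KO ascending replicate 1 and KO descending replicate 2 (adjusted p of 0.0845 to 0.113).

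**Figure D4:**
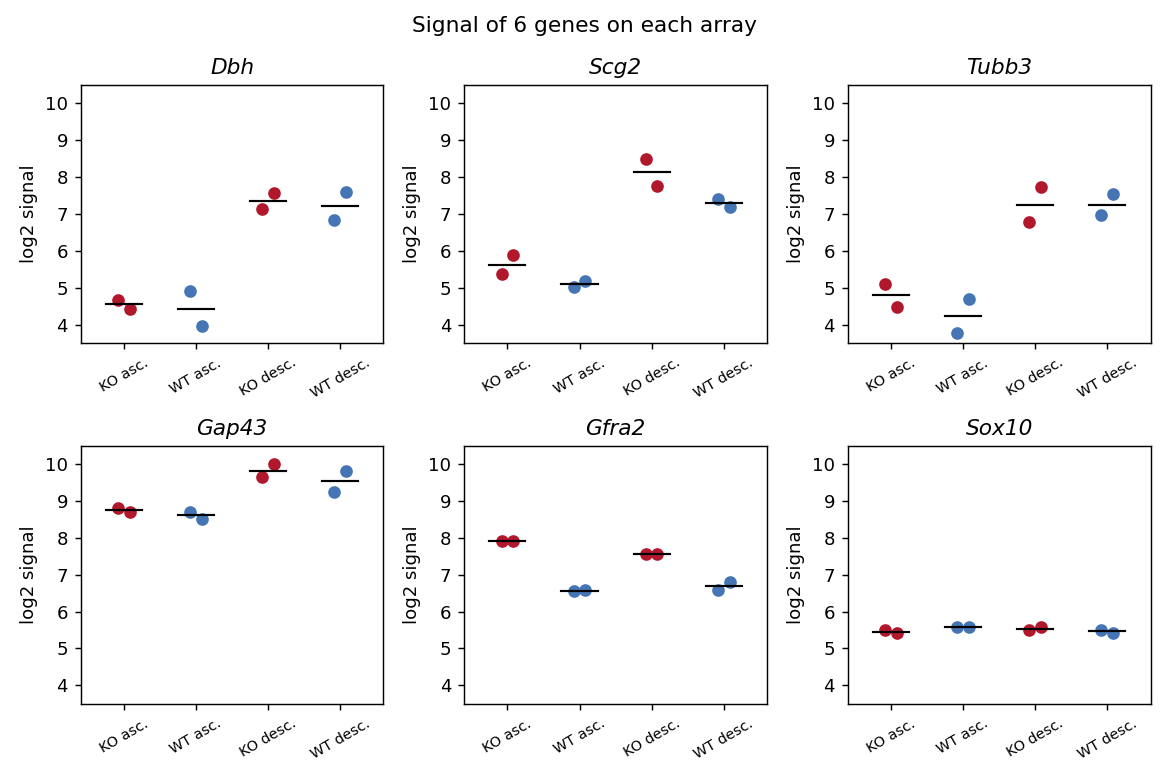
Log2 signal of selected genes on each of the 8 arrays, 1 point per array, by group. Dbh and Scg2 are low in both ascending groups and high in both descending groups, Gfra2 is higher in KO than in WT in both segments, and Sox10 lies within 5.41 to 5.59 on all arrays.

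The other 33 genes had KO minus WT differences that did not pass the test. Their 95% intervals hold for each gene alone and are not adjusted over all genes, so a gene whose interval excluded 0 could fail. Chga in ascending aorta, for example, differed by 0.84 (0.25 to 1.43, adjusted p = 0.124). In 1 segment the 95% half-width over the genes ran from 0.23 to 0.93 log2, with a median of 0.48. For Dbh the difference was 0.12 in ascending aorta (-0.64 to 0.88) and 0.13 in descending aorta (-0.63 to 0.89), and for Th 0.21 (-0.19 to 0.61) and 0.05 (-0.35 to 0.45). Sox10, at -0.03 averaged over the segments (-0.19 to 0.13), was the tightest of the Schwann cell genes. Nearest to the threshold were Ntrk3 at -0.26 (adjusted p = 0.0545) and Syt1 at -0.61 (adjusted p = 0.067) averaged, and S100b at 0.61 (adjusted p = 0.0913) in descending aorta. The S100b arrays of KO descending aorta, at 8.23 and 7.99, lay above those of WT descending aorta, at 7.54 and 7.46, while in ascending aorta they overlapped.

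**Figure D5:**
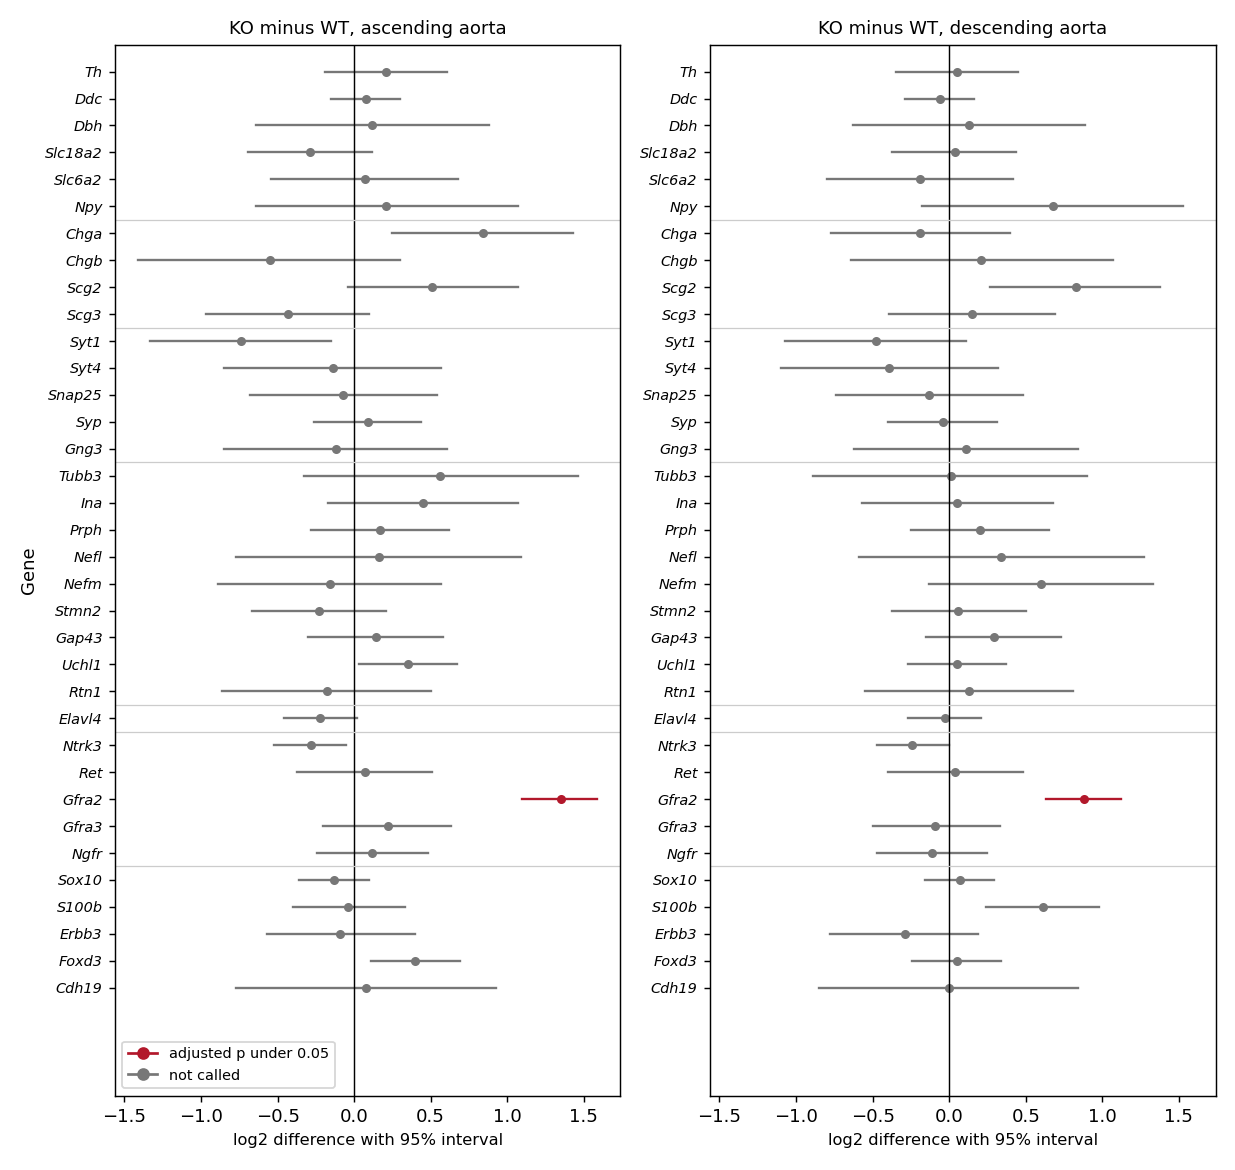
KO minus WT difference (log2) of the 35 genes in ascending and in descending aorta, as points with 95% confidence intervals from limma, grouped by role. Gfra2 lies clear of 0 in both segments, at 1.35 and 0.88, and the intervals of most other genes span 0.

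Whether the segment difference itself depended on the genotype was tested by the interaction. In limma 0 of the 35 genes and 0 of all genes tested passed at an adjusted p under 0.05, and 3 of the 35 and 5.6% of all genes had an unadjusted p under 0.05. The 3 were Chga at 1.03 (adjusted p = 0.802), S100b at -0.65 (adjusted p = 0.802) and Gfra2 at 0.47 (adjusted p = 0.796). The half-width of the 95% interval, which is not adjusted over all genes, had a median of 0.68 log2 over the genes. Interactions of about that size, and larger ones such as that of Chga, could go uncalled with 2 pools in a group.

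Markers of neighbouring tissues also moved with the genotype, averaged over the segments. Of the 8 fat genes 6 were lower in KO, and of the 9 lung genes 2 were lower. Of the 6 adrenal cortex and liver genes 3 were higher in KO, and of the 4 oesophagus genes 1 was higher. The liver gene Alb read 9.05 and 10.20 in KO against 7.61 and 7.20 in WT descending aorta. The part of these tissues in the genotype result was not tested. Among the further sympathetic genes Sox11, a transcription factor of growing neurons, was higher in KO by 0.36 averaged over the segments (SE 0.10, adjusted p = 0.048). Among the further glial genes Egr2, a myelination factor that also responds to stimuli in other cells, was higher by 0.78 (SE 0.11, adjusted p = 0.00574) and Fabp7 by 0.50 (SE 0.12, adjusted p = 0.0299). Egr2 read 6.70 and 7.08 in KO against 5.91 and 5.58 in WT ascending aorta, and 6.26 and 6.18 in KO against 5.86 and 5.76 in WT descending aorta. Its KO arrays stood above its WT arrays in both segments, most in ascending aorta.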

How the data were processed

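RNA of 8 pools, 2 for each of the 4 groups, was amplified with NuGEN kits, labelled with biotin and read on Affymetrix arrays, per the labels. The deposited values are log2 signals that the authors made with RMA in Affymetrix Expression Console, per the submitters' processing notes; the sources used here give no versions, options or genome build. RMA values allow no other background correction. Array medians lay between 5.11 and 5.19, replicate arrays correlated at 0.988 to 0.992, and 0 value columns were left unused.

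Of 41345 probe sets 23525 had 1 gene symbol, 1810 had several and 16010 had none. Genes with a mean under the 25th percentile (4.11 log2) were left out. No detection calls were used, so levels near 4 have no certain signal, and differences of dim genes are understated. The fit was by limma 3.58.1 in R 4.3.3, with a coefficient for each group, no covariate and default eBayes (residual df 4, prior df 4.51). Simulated data for the averaged segment comparison over 16638 genes, with 200 changed in each of 5 draws, gave back 77.2% of changes of 0.5 log2, 99.6% of 1 and 100% of 2 or 3, with 6.42% of calls false. The plots are from matplotlib 3.10.9 (Python 3.11.15).

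The replicate numbers were not used as pairs, since the labels tie them to no litter or day and deviations of arrays with the same number correlated between -0.095 and 0.126. The genes, the 15 further lists (189 genes) and their roles were chosen with earlier results of these data known. Full values were given for members called in any of the 7 comparisons; from each further list up to 6 called genes were named by smallest p, or up to 2 where none was called. Promoter windows and coordinates are RefSeq's, on GRCm38.p6. Alternatives were the dim filter, other scalings (a common median, cyclic loess), a mean over probe sets, a trended robust prior, a replicate block, a fit on the compared arrays alone, and leaving out each array.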

Additional observations from a re-analysis of the deposited data

How the results depend on the processing

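No member reversed direction among called values under any alternative, and 19 of the 24 averaged segment calls were kept under every alternative in which the gene was tested, the exceptions being Slc6a2, Npy, Rtn1, Gfra3 and S100b. Of these 19, 13 were tested under all alternatives, and 6 (Ddc, Scg3, Snap25, Prph, Nefl and Nefm) were left untested by the 50th percentile filter. With members called, ascending vs descending averaged over genotypes, the count was 17 of 22 tested with the 50th percentile filter, and leaving out 1 array gave 20 to 24. For members called, ascending vs descending KO, it was 11 with only the arrays compared, and leaving out 1 array gave 4 to 16. For members called, ascending vs descending WT, leaving out 1 array gave 4 to 14. For members called, KO vs WT averaged over segments, it was 1 with no filter, 4 with the 50th percentile filter and 4 with a trended robust prior, and 1 to 3 when 1 array was left out. For members called, KO vs WT descending, it was 2 with the trended robust prior and 0 to 1 when 1 array was left out. For members called, KO vs WT ascending, it was 1 throughout, and for members called, genotype by segment interaction, it was 0 throughout. The replicate block, on numbers that do not pair the samples, gave 24 calls in the averaged segment comparison, 19 in KO, 14 in WT, 1 for KO against WT in each segment, 2 averaged and 0 in the interaction. With the replicate block the log2 difference of Scg2, KO vs WT averaged over segments, lost its call (adjusted p = 0.0557), and the log2 difference of Npy, KO vs WT averaged over segments, gained one (0.44, adjusted p = 0.0499). With 2 arrays a group, precision is limited by the number of pools. Leaving out 1 array leaves 1 in its group, and fewer of all genes were then called in every comparison but the interaction.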

Other observations

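On the receiving side of sympathetic and parasympathetic signals, 2 receptor genes were lower in KO than in WT aorta. Npy1r, the neuropeptide Y receptor of vascular smooth muscle, read 8.67 and 8.80 in KO against 9.77 and 9.97 in WT ascending aorta, and 7.66 and 7.32 in KO against 9.33 and 8.82 in WT descending aorta. KO arrays lay below WT arrays in both segments, and the KO minus WT difference of Npy1r was -1.13 (SE 0.18, adjusted p = 0.0217) in ascending aorta and -1.59 (SE 0.18, adjusted p = 0.00893) in descending aorta, while it was higher in ascending than in descending aorta by 1.02 (SE 0.13, adjusted p = 0.00395). Chrm2, a muscarinic acetylcholine receptor, read 6.52 and 6.62 in KO against 7.27 and 7.0 in WT ascending aorta, and 5.96 and 5.74 in KO against 6.49 and 6.50 in WT descending aorta, and its averaged KO minus WT difference was -0.61 (SE 0.09, adjusted p = 0.00656). Vip, a neuropeptide of cholinergic nerves, differed by -0.50 (SE 0.10, adjusted p = 0.016). Its KO ascending arrays, at 4.19 and 4.33, were close to the level of the dim filter, 4.11. Chrm2 and Vip were among 5 cholinergic genes tested, of which the other 3 were not called between the genotypes. Among the 17 ligands tested, Edn1, the endothelin that acts on neural crest cells and vessels, was higher in KO by 0.49 (SE 0.07, adjusted p = 0.0061), Vegfa by 0.33 (SE 0.07, adjusted p = 0.0252) and Sema3f by 0.31 (SE 0.08, adjusted p = 0.0379). Most adrenergic receptors on the list had no value here, and the list's 2 genes tested do not describe the family.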
